A study of Mus musculus with 16 samples.

Results

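The circadian clock genes examined here were Per1, Per2, Per3, Cry2, Clock, Bmal1 (listed as Arntl), Nr1d1, Nr1d2, Dbp and Tef, and the peaks described are the H3K27Ac peaks that the authors' annotation assigned to one of these 10 genes. H3K27Ac, acetylation of histone H3 at lysine 27, marks active promoters and enhancers. The 4 H3K27Ac peak lists held 110 such peaks of 53959, and all 10 genes, of 10927 with a peak, had at least 1 peak in each list.

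The chromatin came from cardiomyocytes that were isolated by enzymatic perfusion from hearts of mice aged 3 months, with desmin (Des+/+) or without it (Des-/-). Desmin is the intermediate filament protein of muscle. The mice were either kept at rest (basal) or put through swimming exercise (swim), and each of the 4 groups gave 1 H3K27Ac library, made from chromatin of several mice, and 1 input library of unprecipitated chromatin. With 1 library per group there was no replicate check, so no p-value is given, and all intervals are 95% intervals that cover counting error only. The deletion is in every cell of the Des-/- mice, and the labels give neither an hour of harvest nor a lighting schedule.

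The mammalian clock is a loop of transcription and repression. BMAL1 and CLOCK bind E-box sequences and switch on the Per, Cry, Nr1d and PAR bZIP genes (Dbp and Tef), the PER and CRY proteins then repress BMAL1 and CLOCK, and the REV-ERB proteins made from Nr1d1 and Nr1d2 repress Bmal1 and Clock through ROR elements. In the heart, as in other tissues, histone acetylation at the E-box-driven genes rises and falls over the day, and Bmal1 runs in the opposite phase to Dbp and Nr1d1.

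The sequences below are shown because they hold the elements through which these genes are known to be controlled, within or beside the promoter peaks described afterwards. The 250 bases before an annotated start are from RefSeq (GRCm38.p6), which gave a promoter for 9 of the 10 genes. Capitals mark the motif, which is an E-box (CACGTG) in Per1 and Tef, an E-box variant (CACGTT or its reverse complement) in Nr1d1, and a D-box (TTANGTAA), the element that DBP and TEF bind, in Per3.
Per1, chr11:69098699-69098948, plus strand, before a downstream start within the gene: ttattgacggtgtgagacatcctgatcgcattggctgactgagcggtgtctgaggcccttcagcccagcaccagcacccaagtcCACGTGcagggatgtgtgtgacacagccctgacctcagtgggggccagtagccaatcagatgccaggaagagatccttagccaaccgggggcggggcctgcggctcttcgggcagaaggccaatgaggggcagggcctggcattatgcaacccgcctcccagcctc
Tef, chr15:81811164-81811413, plus strand, before the start of the shorter transcript: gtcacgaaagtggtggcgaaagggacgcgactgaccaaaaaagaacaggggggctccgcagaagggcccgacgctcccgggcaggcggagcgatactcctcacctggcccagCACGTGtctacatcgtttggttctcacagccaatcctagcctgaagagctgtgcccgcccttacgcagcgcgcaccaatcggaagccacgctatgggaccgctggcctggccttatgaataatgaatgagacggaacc
Nr1d1, chr11:98775378-98775627, minus strand: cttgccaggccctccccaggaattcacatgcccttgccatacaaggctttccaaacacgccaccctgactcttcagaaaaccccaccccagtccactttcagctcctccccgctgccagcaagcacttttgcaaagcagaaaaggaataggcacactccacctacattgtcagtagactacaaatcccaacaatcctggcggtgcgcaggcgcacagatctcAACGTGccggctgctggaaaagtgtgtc
Per3, chr4:151044666-151044915, minus strand, with 2 D-boxes: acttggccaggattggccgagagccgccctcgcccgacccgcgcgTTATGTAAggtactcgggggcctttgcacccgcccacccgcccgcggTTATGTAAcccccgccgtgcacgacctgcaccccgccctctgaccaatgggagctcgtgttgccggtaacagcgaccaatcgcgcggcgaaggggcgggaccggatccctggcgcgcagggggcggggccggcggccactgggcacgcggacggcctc

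Sites with 9 bases on each side are printed where they lay inside the merged promoter peaks of Dbp, Nr1d2 and Bmal1, to show the elements under a peak that was split in some lists (Dbp), under the highest clock peak (Nr1d2) and under one that was not listed everywhere (Bmal1). Capitals again mark the motif, an E-box in Dbp and Nr1d2 and a ROR element (GTAGGTNA) in Bmal1. The Dbp and Nr1d2 sites lie in introns and the Bmal1 sites in the noncoding part of the first exon.
Dbp, chr7:45707703-45707726, plus strand, 2624 bases after the gene start: ttccctcgcCACGTGagtccgcct
Dbp, chr7:45707816-45707839, plus strand, 2737 bases after the gene start: tgtaggccaCACGTGatgcggccc
Nr1d2, chr14:18238664-18238687, minus strand, 449 bases after the gene start: cgcactggcCACGTGcacggtgtg
Nr1d2, chr14:18238561-18238584, minus strand, 552 bases after the gene start: gggcggagaCACGTGaggccgcgg
Nr1d2, chr14:18238516-18238539, minus strand, 597 bases after the gene start: ccggaggaaCACGTGggggcggtg
Bmal1, chr7:113207495-113207520, plus strand, 39 bases after the gene start: ggtcggaaaGTAGGTTAgtggtgcga
Bmal1, chr7:113207531-113207556, plus strand, 75 bases after the gene start: aggcagaaaGTAGGTCAgggacggag

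The basal lists of Des+/+ and Des-/- mice held 15757 and 16638 peaks, and the swim lists of the same genotypes 11157 and 10407. Where 4 values follow each other below, they are given in that order, Des+/+ before Des-/- and basal before swim. The value used for a peak is its height, the number of overlapping reads at its summit, and the lowest height in each list was 15 reads. The median height of the highest promoter peak of a gene, with a promoter taken as 3 kb on either side of the assigned start, was 28, 30, 23 and 27 reads. The median input height was 3 reads in all lists but Des-/- swim, where it was 5. The Des promoter peak was 30, 46, 24 and 37 reads high, a value that does not check the loss of the protein. Of 8 cardiomyocyte markers, 8 had a peak in the other lists and 5 in Des-/- swim, where Actc1, Actn2 and Myl2 had none. Endothelial markers had a peak for 4, 4, 3 and 3 of 4 genes, fibroblast markers for 1, 2, 0 and 0 of 4, and the 4 leukocyte and the 4 smooth muscle and pericyte markers for 0 in every list. The part of these library differences in the values below was not tested, and in chromatin from many cells a smaller share of acetylated cells and less acetylation per cell cannot be told apart.

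In both conditions, 29 peaks were assigned to clock genes with desmin and 26 without it. As listed, the number of clock peaks thus stayed level while the swim lists as a whole were shorter. Some regions, however, held more, narrower peaks in the swim lists. With a minimum of 20 reads the counts were 20, 24, 22 and 19, so the order of the genotypes at rest depends on low peaks. The covered length of all clock peaks was 47626, 50034, 39565 and 34852 bp. Their median width was 1184, 1184, 1100 and 975.5 bp, beside 892, 912, 812 and 828 bp over all peaks. Clock peaks and all peaks were both narrower in the swim lists. Merging overlapping peaks gave 27 clock regions, of which 19 (70.4%) had a peak in all 4 lists, against 6899 of 18277 regions (37.7%) over all genes. Of the clock promoter regions 13 of 20 were in all 4 lists, and of those farther away 6 of 7, where all genes had 47.8% and 18.1%. The other 8 clock regions had a peak in 1 list (5 regions) or 2 lists (3 regions), with heights of 15 to 22 reads, near the smallest height listed. Clock peaks were higher than peaks in general, with a median height of 35, 31.5, 24 and 27 reads beside 23, 23, 20 and 23. Peaks under 15 reads are not listed, and neither the shares nor the peak counts above were matched for height. The part of height in them was not tested.

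Nr1d2, which encodes REV-ERB-beta, had the highest clock promoter peak in every list. At rest its peak was 167 reads high with desmin (95% interval 143 to 194) and 192 without (166 to 221). After swimming it was 98 (79.6 to 119) and 122 reads high (101 to 146). That placed Nr1d2 at rank 2 of 8647 genes, rank 1 of 9092, rank 21 of 6506 and rank 5 of 6453. The region (chr14:18237554-18239780) spans the start of the gene, which lies on the minus strand from 18204054 to 18239127, and no other H3K27Ac peak was assigned to it. The input height there was 5, 4, 4 and 10 reads.

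Nr1d1 encodes REV-ERB-alpha, the best known repressor of Bmal1. Its highest promoter peak was 86 and 84 reads at rest and 45 and 57 reads after swimming, Des+/+ first. The basal heights were close to each other and both swim heights were lower. Nr1d1 and Cry2 had 5 merged regions each, the most of the 10 genes. The Nr1d1 region of 6102 bp (chr11:98771687-98777788) spans the start and holds 5 E-boxes and 3 ROR elements. The ROR elements at 98771996-98772003 and 98772118-98772125 lie in coding exons, in a part listed in Des-/- swim alone. A weak region of 17, 19, 20 and 15 reads lies at the end of the gene, where Thra overlaps on the opposite strand. Beside it 1 of 15 reads was listed in Des+/+ swim alone. A pair lies upstream in the direction away from the gene. The nearer upstream region (chr11:98782068-98783575) was 51, 45, 23 and 30 reads high and the farther one (chr11:98783630-98785809) 33, 31, 19 and 15 reads.

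Per1, Per2 and Per3 encode the PERIOD repressors. Per1 had a peak of 5974, 5840, 5287 and 5549 bp that covered its first start and both downstream starts, with a height of 100, 103, 71 and 91 reads. A second, smaller peak just upstream of the first start was 46, 46, 27 and 24 reads high. The merged regions of both peaks held 5 E-boxes.

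At its start Per2 was 53 reads high with desmin (39.7 to 69.3) and 75 without (59.0 to 94.0) at rest, and 62 (47.5 to 79.5) and 92 (74.2 to 113) after swimming. It was the one clock gene whose promoter peak was higher in the swim list than in the basal list of the same genotype before any scaling. Its rank among genes was 1218, 603, 228 and 54. A weaker intragenic region (chr1:91435326-91437385) was 19, 28, 22 and 20 reads high, and another one (chr1:91455299-91457184) was listed in the basal lists alone, at 18 and 20 reads. Per3 was 42, 54, 26 and 35 reads high at its start, in a single peak, and Des-/- basal had a second peak of 20 reads just upstream (chr4:151044867-151045578).

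Cry2 encodes a cryptochrome, the partner of the PER proteins. Its promoter peak was 38, 41, 23 and 32 reads high. A second region inside the gene (chr2:92422304-92426192), as high as the promoter in the basal lists, was 41, 45, 25 and 16 reads. In Des-/- swim this intragenic region was the lower of the pair by a factor of 2. A noncoding gene on the opposite strand, D930015M05Rik, overlaps that region, and the lists cannot tell to which gene the acetylation belongs.

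Of the activators Clock and Bmal1, Clock had a promoter peak near the median of all genes and Bmal1 a low one. The Clock peak was above 63.6%, 43.4%, 60.8% and 37.4% of genes, and that of Bmal1 above 8.34% and 25.5% at rest. Clock was 35, 28, 27 and 24 reads high, with intervals that all overlapped (24.4 to 48.7 for the highest and 15.4 to 35.7 for the lowest). Bmal1 had a promoter peak of 17 reads in Des+/+ basal (9.90 to 27.2) and 22 in Des-/- basal (13.8 to 33.3), and none was listed in either swim list. Of all genes with a promoter peak in the basal list, 28% had none in the swim list of Des+/+ mice and 32% in that of Des-/- mice. Among genes whose basal promoter peak was 17 to 22 reads high, as that of Bmal1 was, these shares were 59.3% of 1987 and 65.7% of 1982, so the loss of a peak of this height was common. The Des+/+ basal peak begins at 113207501 and covers both ROR elements printed above, while the Des-/- basal peak begins at 113207520 and covers the second alone. An intergenic region 20 kb upstream (chr7:113185557-113187336) was instead in all 4 lists, at 24, 26, 24 and 22 reads.

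Dbp and Tef encode PAR bZIP activators that act through D-boxes. Dbp had a pair of regions on either side of its start. The one over the gene body (chr7:45705153-45709437) was 100 (81.4 to 122) and 81 reads high (64.3 to 101) at rest and 36 and 54 reads high after swimming, and holds both E-boxes printed above. The upstream one (chr7:45703729-45704931) was 61, 55, 42 and 39 reads high. In Des+/+ swim the upstream peak was the higher of the pair, whereas in the other lists the gene body was, so the highest promoter peak of Dbp stands for another place in that list. The gene-body peak was unbroken in both basal lists and split into 2 peaks in both swim lists. Tef had its high peak at the start of the shorter transcript (chr15:81809809-81812734), with 88, 104, 72 and 64 reads and an input height of 7, 3, 3 and 12 reads. A 6542 bp region beyond the end of Tef (chr15:81833271-81839812) was 41, 32, 30 and 31 reads high.

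**Figure D1:**
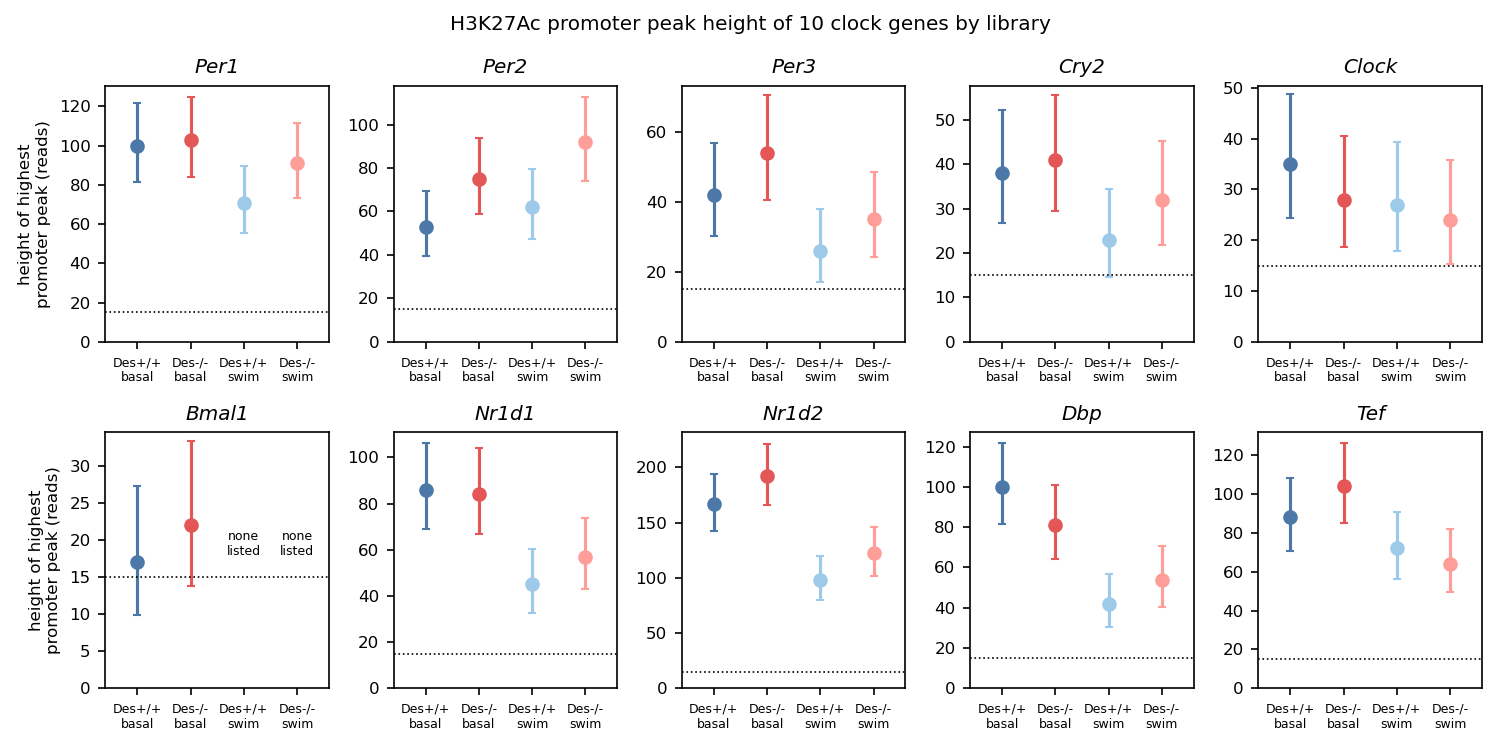
Height in reads of the highest H3K27Ac promoter peak (vertical axis, each panel with its own scale from 0) of the 10 clock genes in the 4 libraries (horizontal axis). Points are the deposited heights, bars are exact 95% Poisson intervals for counting error, and the dotted line is the smallest listed height of 15 reads. Per2 was higher in swim than in basal within each genotype, with overlapping intervals. Bmal1 was not listed in swim, and all the other genes were lower in swim before scaling.

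The plot of promoter heights shows Nr1d2 as the highest gene in every library and Bmal1, where it was listed, as the lowest. The heights of different genes are compared here as deposited, since a summit height does not depend on gene length. The intervals of Cry2 and Clock overlapped between all pairs of libraries. Between basal and swim those of Nr1d2 did not overlap in either genotype, those of Dbp and Nr1d1 did not in Des+/+, and those of Tef did not in Des-/-, all with the lower height after swimming and before scaling. The Per2 intervals overlapped between basal and swim in each genotype.

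**Figure D2:**
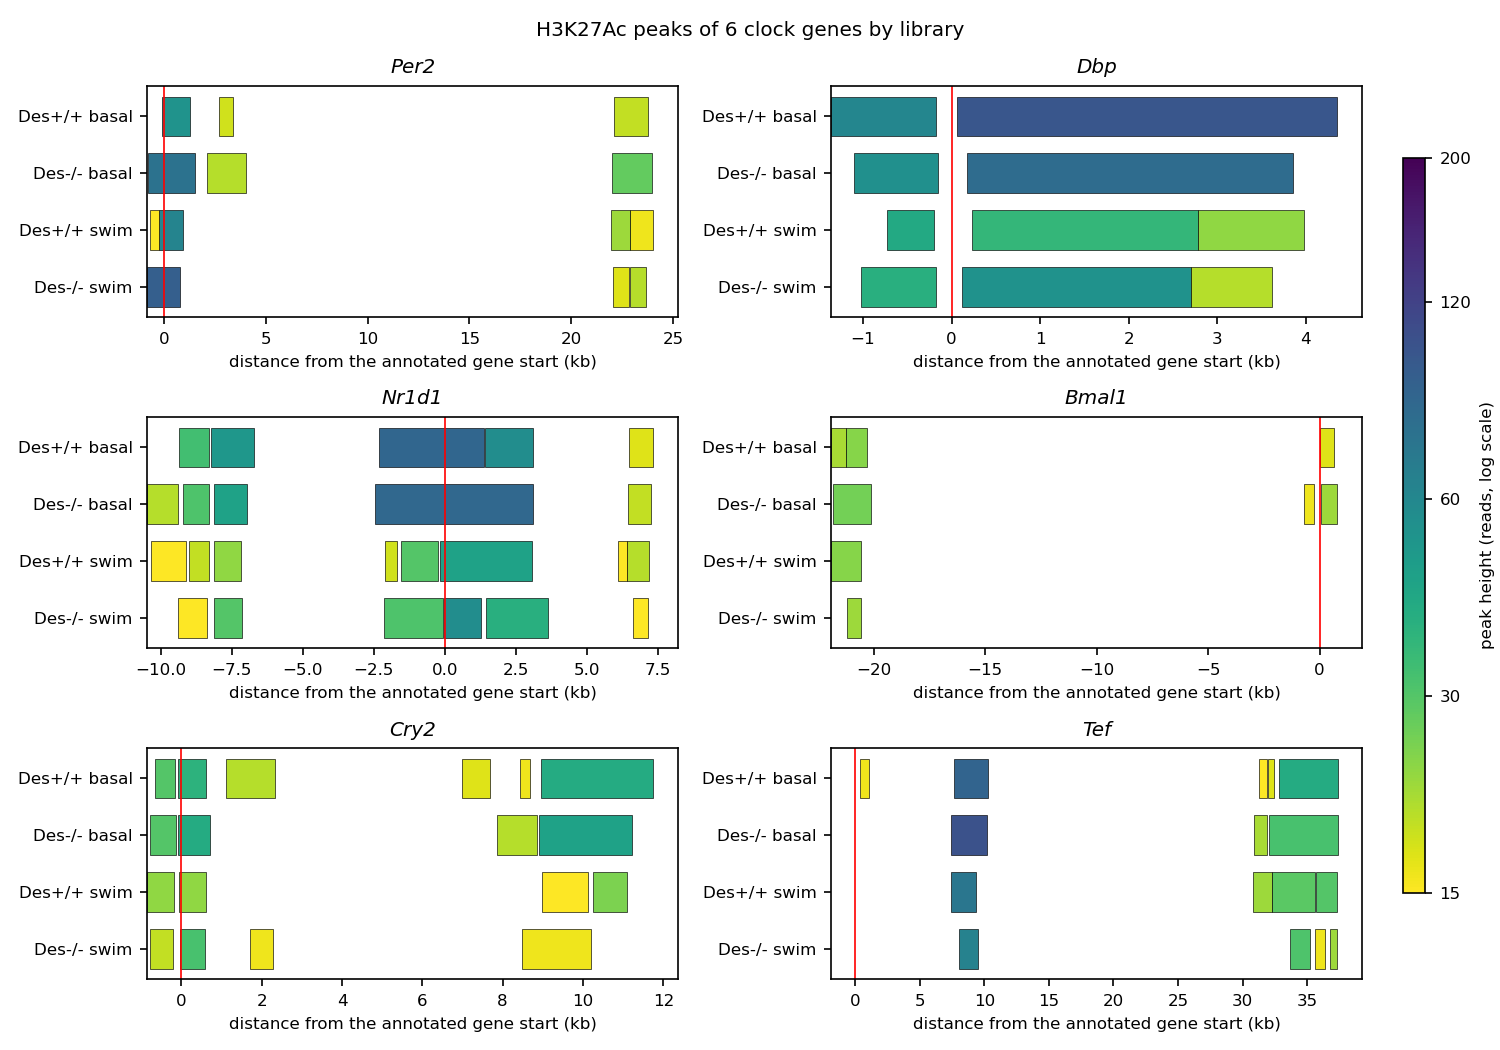
Position of the H3K27Ac peaks assigned to 6 clock genes, as distance in kb from the GENCODE gene start (red line, positive into the gene), with 1 row per library. Each box is a listed peak and its colour is its height in reads on a log scale; the Dbp gene-body peak is split in both swim libraries, and the Bmal1 promoter peak is present in the basal libraries alone.

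The map of peak positions shows that the same places carried peaks in the 4 libraries for Per2, Dbp, Nr1d1, Cry2 and Tef, while their edges and splits moved. Sites listed in 1 or 2 libraries only, such as the Tef peak of 16 reads at the start of the longer transcript in Des+/+ basal, were all low.

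To compare heights across libraries, the log2 ratio of each gene's highest promoter peak was taken and the median over all genes with a promoter peak in both lists was subtracted. That median was 0.12 for Des-/- over Des+/+ at rest, 0.18 after swimming, -0.50 for swim over basal in Des+/+ and -0.45 in Des-/-. The swim heights were therefore lower across the genome, and the differences below are relative to this shift. A scaled ratio over 1.5-fold either way was counted as past the limit.

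Between the genotypes, 0 of 10 clock genes at rest and 0 of 9 after swimming were past the limit. Over all genes, 3.01% were past it upward and 2.95% downward at rest, and 3.4% and 3.92% after swimming, so a count of 0 among so few genes is near the background. At rest the scaled log2 difference ran from -0.44 (Clock) and -0.42 (Dbp) to 0.39 (Per2), with a median of 0.04. After swimming it ran from -0.35 (Clock and Tef) to 0.39 (Per2), with a median of 0.18. Per2 was higher in Des-/- than in Des+/+ by the same 0.39 in both conditions, with intervals of the fold of 0.907 to 1.89 at rest and 0.941 to 1.84 after swimming, both of which include 1.

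With swimming in Des+/+, Per2 was past the limit upward and Dbp downward among 9 genes, where 3.89% of all genes were past it upward and 3.02% downward. Per2 differed by 0.72 on the scaled log2 scale (1.65-fold, interval 1.12 to 2.43), above 98.1% of genes. Dbp differed by -0.76 (1.69-fold lower, interval of the ratio 0.403 to 0.857), with 0.819% of genes below it. The other differences ran from -0.44 (Nr1d1) to 0.21 (Tef), and the median over the 9 genes was -0.20. Per1, also an E-box gene, was at 0.00. Among the 1603 genes with a mean height of at least 40 reads, 0.811% were past the limit upward and 2.37% downward. When fold over input was used in place of height, Per2 was at 0.13 (input 3 reads at rest and 5 after swimming), Dbp at -0.15 and Nr1d1 at 0.57. By that measure Tef was past the limit upward in place of Per2, so the count in Des+/+ rests on the use of height. Before scaling, the Tef fold over input went from 11.1 to 18.25 in Des+/+. In Des-/- it went the other way, from 26.25 to 5, with an input height of 3 reads at rest and 12 after swimming.

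With swimming in Des-/-, Per2 alone of 9 genes was past the limit upward and 0 were downward, beside 4.21% and 2.77% of all genes. Per2 differed by 0.74 (interval of the fold 1.22 to 2.30), above 98.3% of genes, and by 0.98 on scaled fold over input. Before scaling, its fold over input was lower after swimming, from 19 to 15.5 here and from 13.5 to 10.5 in Des+/+. Dbp differed by -0.14 here and Nr1d1 by -0.11, and the median was -0.11. The Dbp difference was thus seen in 1 genotype, and whether the genotypes differ in it could not be tested. Per3, Nr1d1, Nr1d2 and Dbp were lower with swimming in both genotypes (4 of 9 genes, against 30.4% of all 5260 genes with a promoter peak in all 4 lists), and Per1, Per2 and Clock were higher in both (3 of 9, against 24.0%), Per1 in Des+/+ by a difference that rounds to 0.00. Without scaling of the heights, Per1 and Clock were lower in both and Per2 remained higher, by 0.23 and 0.29. Nothing is read from these counts, since the genes are few.

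**Figure D3:**
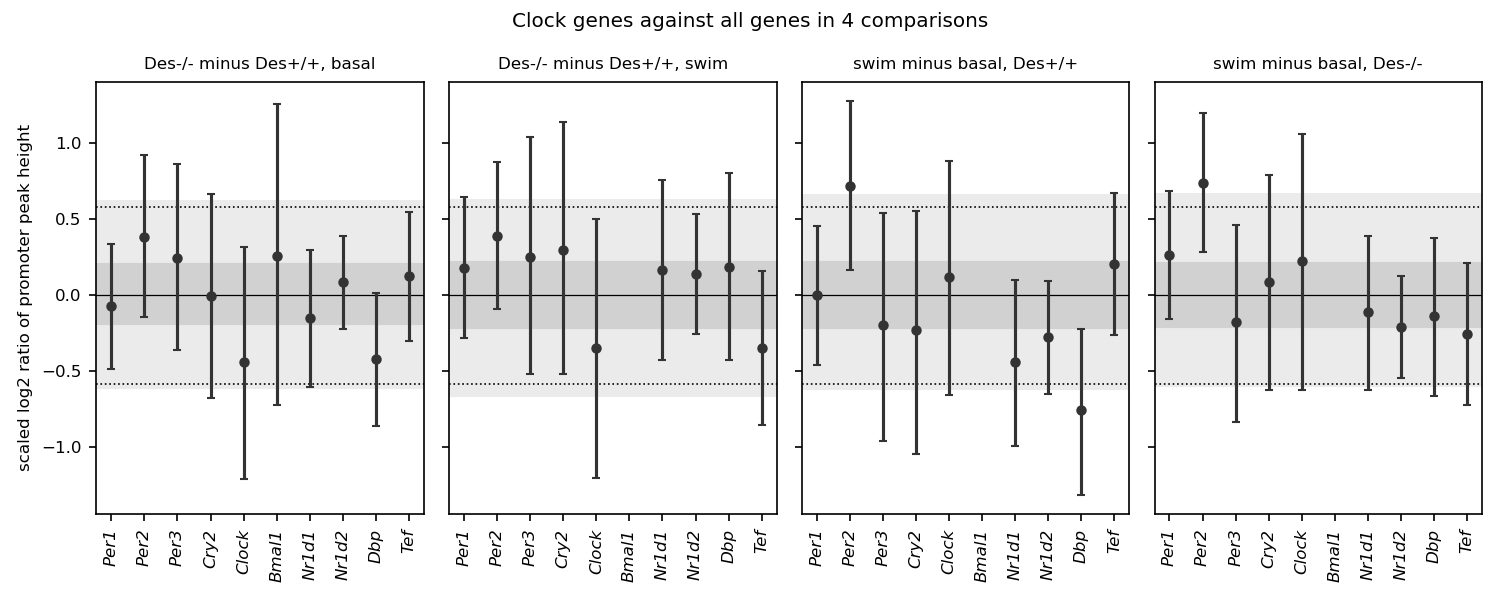
Scaled log2 ratio of the highest promoter peak (vertical axis) for each clock gene in the 4 comparisons (panels), with exact 95% intervals for counting error. The dark band runs from the lower to the upper quartile and the light band over the middle 95% of all genes, and dotted lines mark 1.5-fold; Per2 lies above the upper line in both swim panels and Dbp below the lower line in Des+/+ alone.

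Because the highest peak of a gene may lie in different places, the same merged regions were also compared, scaled on all regions in the same way. The value of a region was its highest peak, whose summit may still move within the region. At rest 0 of 21 clock regions were past the limit between genotypes (2.9% of all regions upward, 3.03% downward). After swimming 0 of 19 were upward and 1 downward (3.13% and 4.23%), which was the intragenic Cry2 region at -0.80. With swimming in Des+/+, 3 of 19 were upward and 2 downward (5.03% and 3.82%), and in Des-/- 1 was upward and 2 downward (4.48% and 2.48%).

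The Dbp gene body gave the lowest of these differences in Des+/+, at -1.04 (2.05-fold lower, interval of the ratio 0.324 to 0.720), with 0.0342% of regions below it. In Des-/- the same region was at -0.17, and the Dbp upstream region was at -0.10 and -0.08 in Des+/+ and Des-/-. The larger difference was thus over the transcribed part of Dbp. The highest summit there was at 45706658 in Des+/+ basal and at 45707516 in Des+/+ swim. The upstream Nr1d1 region nearest the start was at -0.71 in Des+/+ (interval 0.356 to 1.02). The Per2 start region was at 0.66 in Des+/+ (interval 1.08 to 2.33) and 0.71 in Des-/- (1.19 to 2.25), and the other upward regions in Des+/+, inside Per2 and at the end of Nr1d1, were low, at 22 and 20 reads in the swim list. In Des-/- the intragenic Cry2 region was at -1.08 (interval 0.250 to 0.855), with 0.0474% of regions below it, and the farther upstream Nr1d1 region at -0.63.

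**Figure D4:**
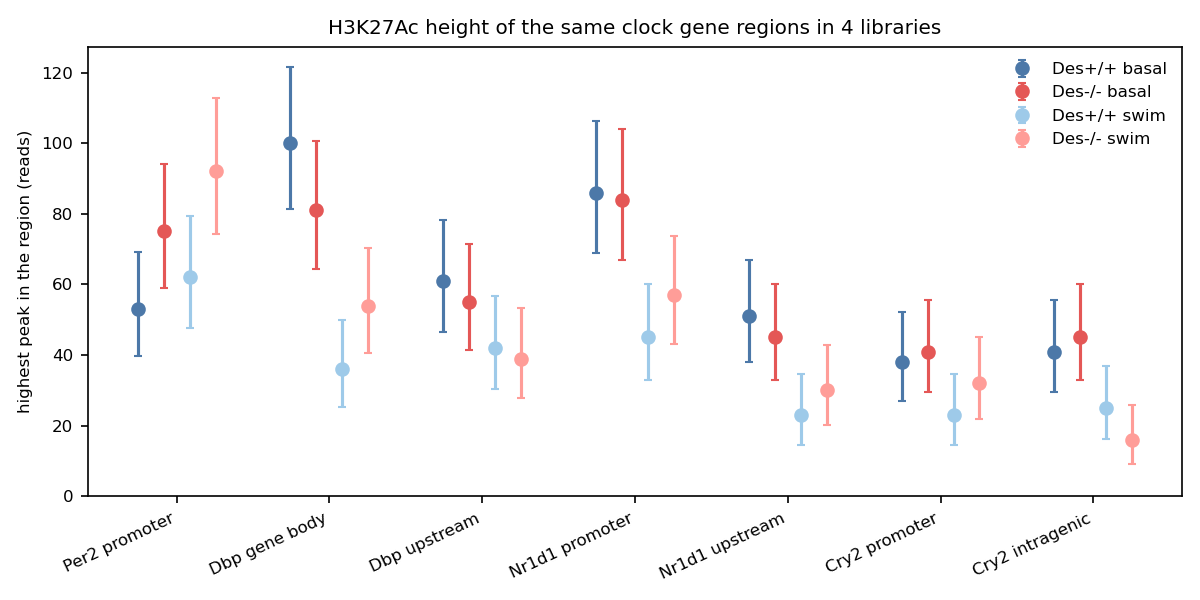
Height in reads of the highest peak in 7 clock gene regions (horizontal axis) in the 4 libraries, before scaling, with exact 95% Poisson intervals. The Dbp gene body falls from 100 reads in Des+/+ basal to 36 in Des+/+ swim while its upstream region goes from 61 to 42, and the intragenic Cry2 region is lowest, at 16 reads, in Des-/- swim.

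The plot of matched regions sets the unscaled heights side by side. Per2 is the one region there with its highest value in a swim library, and the Dbp gene body and upstream region part in Des+/+ swim.

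The genes that run in opposite phase were then set against each other, because a library taken at another hour could move them apart. The genes on each side were pooled without regard to their own peak hours, so the contrast cannot decide whether the hour differed. The contrast was the median scaled log2 difference of Per1, Per2, Per3, Nr1d1, Nr1d2, Dbp and Tef minus the mean of Bmal1 and Clock, or of Clock alone where Bmal1 had no promoter peak. It was 0.18 for genotype at rest, 0.53 for genotype after swimming, -0.32 for swimming in Des+/+ and -0.36 in Des-/-. All but the first rest on Clock alone, whose peak of 24 to 35 reads has wide intervals. They hold no value of Bmal1, the gene described above as opposite in phase to Dbp and Nr1d1. The comparisons share libraries, so the 4 values are not separate pieces of evidence. With Cry1, Nfil3 and the other arm genes of the wider clock list added, the genotype contrasts were -0.04 and 0.04 and the swim contrasts -0.31 and -0.38. Within the E-box-driven arm, with swimming in Des+/+, Per2 (0.72) and Dbp (-0.76) were the extremes. The others ran from -0.44 (Nr1d1) to 0.21 (Tef). The Dbp value sets its upstream peak after swimming against its gene-body peak at rest. What these differences owe to the hour was not tested. Each group had 1 library, so hour of harvest, genotype and swimming cannot be told apart.

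Of a wider list of 19 clock genes, 15, 15, 13 and 14 had a peak in the 4 lists, and Npas2, Hlf, Rorb and Fbxl21 had none in any. In each comparison 1 of the 13 to 15 genes with a value was past the limit, upward, which is near the 3.01%, 3.4%, 3.89% and 4.21% of all genes past it upward in the comparisons of genotype at rest and after swimming and of swimming in Des+/+ and Des-/-. Nfil3, the repressor that competes with DBP at D-boxes, was 26, 50, 29 and 30 reads high, with a scaled difference of 0.83 for genotype at rest and 0.65 for swimming in Des+/+. Its highest peak began at 52979131 in Des+/+ basal, but at 52981194 in Des-/- basal and 52981190 in Des+/+ swim. The Nfil3 differences thus compare different places. Cry1, the cryptochrome that peaks late, was 35, 34, 22 and 45 reads high, with 0.86 for genotype after swimming and 0.85 for swimming in Des-/-. The Cry1 input height was 4, 3, 3 and 10 reads, and its fold over input 7.2, 8.75, 5.75 and 4.18, lowest in Des-/- swim.

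Per1 and Per2 are also induced by glucocorticoids, so 6 glucocorticoid target genes were listed beside them. All 6 had a promoter peak in every list. With swimming in Des+/+, Fkbp5 (19 to 32 reads, scaled log2 difference 1.25), Zbtb16 (21 to 30 reads, 1.01) and Tsc22d3 (22 to 27 reads, 0.79) were past the limit upward, 3 of 6 beside 3.89% of all genes. Their intervals of the fold were 1.31 to 4.43, 1.12 to 3.70 and 0.949 to 3.19. Klf9 (0.09), Sgk1 (0.19) and Klf15 (0.42) were not past the limit. In Des-/- Fkbp5 was past it upward (24 to 29 reads, 0.72, interval of the fold 0.926 to 2.96), 1 of 6 beside 4.21%. The Fkbp5 peak began at 28419799 and 28420327 in Des+/+ basal and swim, but at 28485430 and 28485383 in Des-/-. The genotypes thus report different places of Fkbp5. Its input height was 1, 2, 1 and 8 reads and its fold over input 10, 8.33, 16.5 and 3.33, lowest in Des-/- swim. The highest of all peaks assigned to Fkbp5 was 35, 33, 32 and 37 reads. There Tsc22d3 (-0.19) and Zbtb16 (-0.08) were lower with swimming, and Klf9 (0.29), Klf15 (0.40) and Sgk1 (0.46) were higher. Between genotypes at rest Tsc22d3 (0.71, interval 0.947 to 2.90) and Zbtb16 (0.66, interval 0.899 to 2.85) were past it upward, 2 of 6 beside 3.01%. After swimming 0 of 6 were, beside 3.4%. The Tsc22d3 and Zbtb16 differences at rest use the same Des+/+ basal peaks of 22 and 21 reads as those for swimming in Des+/+. The share of hormone in the Per2 heights was not tested.

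Across the 4 libraries, each scaled to its own median, the range of log2 height was 1.19 for Per2 and 0.70 for Dbp, against a median of 0.39 over the 9 clock genes with a promoter peak in all lists, 0.43 over all 5260 such genes and 0.34 over the 1668 with a mean height of at least 40 reads. The median clock gene thus lay between these backgrounds, and Per2 and Dbp above both. Relative to its own mean, Per2 stood at -0.59, -0.20, 0.19 and 0.60. The genes nearest to Dbp in pattern, by Euclidean distance of centred log2 heights over the 4 libraries, were Sft2d3 (0.0599), Zfp521 (0.0932) and Lims1 (0.101). Bmal1 has no such value, since it lacks a promoter peak in both swim lists.

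The clock elements were more frequent per base in the clock promoter regions than in all promoter regions. Both strands were searched. The E-box occurred 0.490 times per kb in the 20 clock regions and 0.212 times per kb in all 12094, and the variant CACGTT 0.310 and 0.215 times. The D-box occurred 0.206 and 0.0730 times per kb and the ROR element 0.129 and 0.0655 times. At least 1 E-box was in 7 of 20 clock regions and 2739 of 12094 regions in all. These counts were 10 and 2860 for the variant, 6 and 1058 for the D-box, and 2 and 972 for the ROR element. The ROR rate thus rests on 2 clock regions, and the share of regions with a ROR element was near that of all regions. The E-boxes of the clock regions were in Per1 (5), Nr1d1 (5), Tef (4), Nr1d2 (3) and Dbp (2), and the ROR elements in Nr1d1 (3) and Bmal1 (2). Within the RefSeq promoters, from 250 bases before to 50 after the start, the E-box was found in Per1 and Tef and in 7.15% of all promoters, the variant in Cry2 and Nr1d1 (4.68%), the D-box in Per3 (2.32%) and the ROR element in Bmal1 (2.14%). The matches are a description of letters, not of binding.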

How the data were processed

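Peak lists of 4 H3K27Ac and 4 lamin A/C libraries were used, 1 library per genotype, condition and antibody. The authors aligned single-end reads to GRCm38 (mm10) with Bowtie2 2.4.4 at default settings, used SAMtools 1.13, called peaks per library with in-house code, taking the input as background, and annotated them with ChIPseeker 1.36.0. The deposited distance to the start is a signed score in bp from that annotation by the authors. Treatment of duplicates and any scaling of the input are not given in the sources used here. The deposited peak height and input height are a coverage signal (overlapping reads at the summit), the deposited fold change is the ratio of height plus 1 to input height plus 1, and the deposited p-value and false discovery rate columns come from the authors' caller and were not used. Library totals are not in the lists, so depth is seen through the heights.

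Peaks were taken by gene symbol. A gene's value was its highest peak within 3 kb of the assigned start, and log2 ratios between lists were computed from these heights without a pseudocount. Intervals are exact Poisson (heights) and exact conditional binomial (ratios), at 95%. Regions were merged at 1 bp overlap. With 1 library per group no test was possible, and genes were named by fold size: all 10 clock genes, and those of the wider clock and glucocorticoid lists past 1.5-fold. The 10 genes and all lists were chosen with earlier results of these data known, and 1 gene of the wider list is not reported here. Gene positions are from GENCODE vM21. Alternatives tried were 1 kb promoters, all assigned peaks, fold over input, height minus input, no scaling, a minimum of 20 reads, 50% overlap, a 2-fold limit and wider arms; scaling on genes of at least 40 reads and matched regions were added after seeing the data. Scripts were tested on simulated data (Python 3.11.15, pandas 2.3.3, numpy 2.4.6, scipy 1.17.1).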

Additional observations from a re-analysis of the deposited data

Results flagged for a closer look

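One signal lay outside the H3K27Ac lists. In the lamin A/C lists, a peak was assigned to a clock gene once, to Nr1d2 in Des+/+ basal, at chr14:18097073-18097269 and 115103 bp from the Nr1d2 start. Its height was 8 reads over an input height of 1, and 0 lamin A/C peaks were assigned to clock genes in the other 3 lists, which held 831 (Des-/- basal), 635 (Des+/+ swim) and 536 (Des-/- swim) peaks against 188 in Des+/+ basal.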

How the results depend on the processing

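No paired analysis was possible because each group had 1 library. Of 102 alternative values of the summaries, 86 stayed within the limits set for a change and 16 moved, and of 258 for single genes 241 stayed, 11 moved and 6 reversed. The limits were wide. Values counted as staying include the clock peaks of Des+/+ basal, 29 as listed and 20 at a minimum of 20 reads. They also include the phase contrast for genotype at rest, 0.18 in the main setting and -0.04 with wider arms. Counting promoter peaks alone gave 18, 17, 18 and 17 clock peaks in Des+/+ basal, Des-/- basal, Des+/+ swim and Des-/- swim. With fold over input in place of height, the clock genes past 1.5-fold were 3 and 4 between genotypes at rest and after swimming. With swimming, 1 (Tef) was past it in Des+/+ and 4 in Des-/-. Subtracting the input gave 2 between genotypes after swimming. Without scaling, 5 and 4 were past it with swimming in Des+/+ and Des-/-, and at a 2-fold limit 0 and 0. The phase contrast for genotype at rest was 0.69 with fold over input and 0.52 at a minimum of 20 reads, and after swimming 0.0372 with wider arms. With fold over input Nr1d1 (0.81) and Dbp (0.12) were higher in Des-/- at rest, and with swimming in Des+/+ Nr1d1 was at 0.57, Per2 at 0.13 and Dbp at -0.15. Without scaling Per1 (-0.49) and Tef (-0.29) were lower with swimming in Des+/+, and Per1 (-0.18) in Des-/-. Input heights of 2 to 12 reads enter fold over input directly. Further causes of these moves were not tested. Peaks under 15 reads are not listed, which limits what can be said of Bmal1 after swimming.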
